A study of Rattus norvegicus with 18 samples.

Results

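The genes described here serve the response of the cell to unfolded protein in the endoplasmic reticulum (ER) and the integrated stress response, and were taken from a named list of 33 genes. For each gene the probe sets whose annotation gave its symbol alone were taken, and of these the one with the highest mean over all arrays. This gave 32 genes of the 14217 genes with a symbol on the array. Ern1, which encodes the ER sensor IRE1, had no probe set with its symbol alone and is not described. The levels were measured in primary hepatocytes (cultured liver parenchymal cells) of Wistar rats, on Affymetrix rat arrays. After attachment the cultures received 30 µM EMD, 100 µM EMD or the vehicle alone for 24 or 72 h, and every culture, the controls included, held 0.1% DMSO and a medium with insulin and hydrocortisone. EMD is a compound that activates both PPARα and PPARγ, receptors of lipid metabolism. Each of the 6 groups held 3 arrays, called arrays 1, 2 and 3 after the replicate numbers of the labels. According to the methods cells of each animal received each treatment, so the cultures model isolated liver cells of a few rats and not the organ. Age and sex of the animals are not given in the sources used here.

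In the unfolded protein response, ER sensors respond when folding in the ER cannot keep up with synthesis. The sensor PERK (Eif2ak3) phosphorylates the initiation factor eIF2α, which lowers translation in general while the mRNA of the transcription factor ATF4 is translated more, and other kinases feed the same step from amino acid lack, viral RNA or haem lack, so the branch is also called the integrated stress response. IRE1 splices the mRNA of XBP1 and ATF6 is cut to a free transcription factor, and both raise genes for chaperones, disulfide enzymes and the removal of misfolded protein. Hepatocytes secrete most plasma proteins and therefore carry a large ER.

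Values are log2 expression estimates of a probe set, changes are log2 differences between group means with the standard error (SE) of the fit and 3 arrays a group, and the words rose and fell are kept for genes with an adjusted p below 0.05 (limma, all 31042 probe sets). The labels name the arrays with EMD biological replicates and the methods do so for every group, but neither ties a number to an animal, so the tests measure the spread between these replicates. Both doses were compared with the same vehicle arrays of their time, so that these comparisons share the chance values of those arrays.

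One array stood apart for these genes. In the group with 100 µM at 72 h, arrays 2 and 3 differed by a root mean square of 0.215 over all probe sets, whereas array 1 differed from them by 0.363 and 0.326 and was nearest to array 1 of 30 µM at 72 h, at 0.225. Of the 18 arrays 8 had their nearest array in another group, in each case the array of the same number and time at the other dose. RNA quality was read as the log2 difference between 3' and 5' control probe sets. In arrays 1, 2 and 3 of that group it was 0.848, 0.851 and 0.840 for beta-actin, 0.167, 0.118 and 0.138 for GAPDH and 1.64, 1.79 and 1.57 for hexokinase, so that array 1 was the highest of the 3 for GAPDH and lay between the others for the remaining controls. Because array 1 decides many values at 72 h, many counts and medians that use its group are also given without it. Array 1 was singled out in these same genes, so calls without it are no separate support for a change. As the groups share 1 estimate of the spread, its distance also widens the SE of these genes in comparisons that do not use its group.

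Array medians lay between 5.04 and 5.11, and a change of a probe set had a median SE of 0.116 for EMD against DMSO at 3 arrays a group, a number that sets the precision. The hepatocyte markers had a summed level (log2 of the summed linear values) from 16.20 to 16.33 with DMSO at 72 h, 15.85 to 15.94 with 30 µM and 15.77 to 15.91 with 100 µM. Of the 6 measured, 0 rose and 4 fell at each dose at 72 h (Serpina1, Apoa1, Cps1 and Ttr). Over all probe sets 7.88% rose and 9.22% fell with 30 µM, and 7.42% and 9.68% with 100 µM, which also serve the other marker counts. The mean level of the hepatocyte markers was 12.8, 12.61 and 12.64 in arrays 1, 2 and 3 of 100 µM, and 13.12, 13.19 and 13.31 with DMSO. Of 7 macrophage markers 1 fell with 30 µM (Lyz2) and 2 with 100 µM (Lyz2 and Cd14), with a summed level of 10.35 to 11.19 with DMSO, 9.63 to 10.01 with 30 µM and 9.61 to 9.68 with 100 µM. Of 8 stellate cell and fibroblast markers 2 fell with 30 µM (Acta2 and Des) and 0 with 100 µM, and of 6 endothelial and 5 cholangiocyte markers 0 passed at either dose (1 of the latter rose without array 1 of 100 µM). The beta-actin difference was 0.698 ± 0.054 (SD, n = 3) with DMSO at 72 h, 0.848 ± 0.041 with 30 µM and 0.847 ± 0.006 with 100 µM, while that of GAPDH was 0.168 ± 0.024, 0.171 ± 0.039 and 0.141 ± 0.025. The part of cell makeup and RNA quality in the results below was not tested, and in RNA of whole cultures fewer cells of a type and less RNA per cell cannot be told apart.

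Few of the genes passed the test after 24 h, and more did after 72 h, as was the case over the whole array. Of all probe sets 5.36% passed with 30 µM and 6.01% with 100 µM at 24 h, and 17.1% at each dose at 72 h. At 24 h 1 of 32 rose and 1 fell with 30 µM, where 3.35% of all probe sets rose and 2.01% fell, and the count was the same with 100 µM, where 3.06% rose and 2.95% fell. At 72 h 1 rose and 10 fell with 30 µM, against 7.88% and 9.22% of all probe sets, and 6 rose and 8 fell with 100 µM, against 7.42% and 9.68%. The median change of the 32 genes with 30 µM at 72 h was -0.309, against 0.008 over all probe sets, and 28 of the 32 were lower. With 100 µM the median was 0.001 against 0.022, with 16 genes higher and 16 lower. That median joins unlike arrays. The median difference of the 32 genes from the vehicle mean was -0.414 in array 1, 0.300 in array 2 and 0.331 in array 3. The count with 30 µM was 5 of 32 (Chac1, Atf3, Xbp1, Sesn2 and Ero1a) without array 2 or array 3 of that dose and 7 without DMSO array 2. The shares of all probe sets in those fits are not given here. In the fit without array 1 of 100 µM 1 gene rose and 15 fell with 30 µM, against 8.38% and 10.1% of all probe sets. The count with 100 µM was 23 without array 1 of that dose (15 rose and 8 fell), against 9.11% and 10.5% of all probe sets. It was 10 without array 2 or array 3 (2 rose and 8 fell). The shares of all probe sets were then 5.44% and 7.48% without array 2, and 5.06% and 6.75% without array 3.

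**Figure D1:**
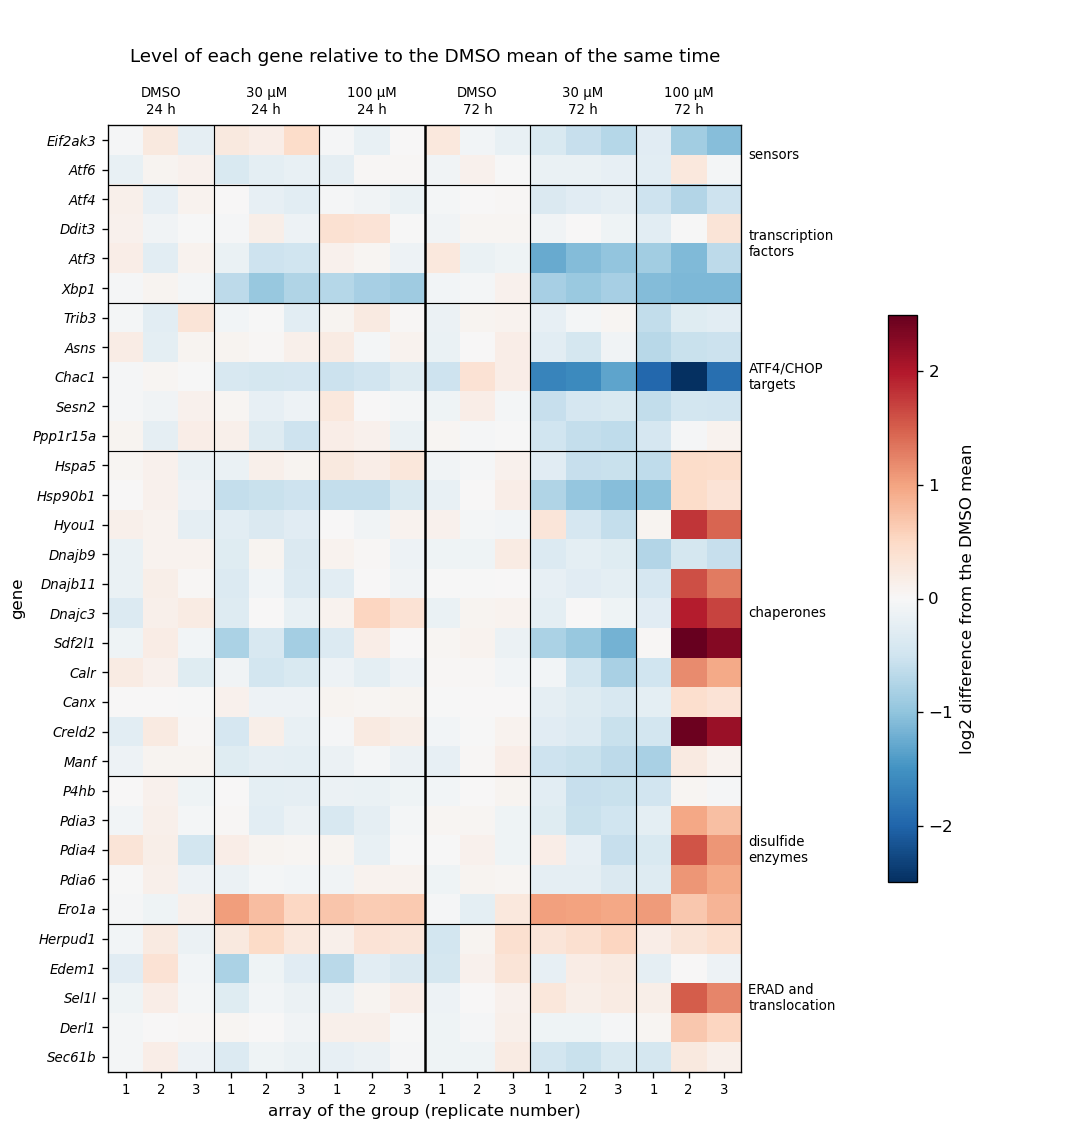
Each row is a gene, grouped by role, each column an array (number within its group), and the colour is the log2 difference from the DMSO mean of the same time. With 100 µM at 72 h most chaperones and disulfide enzymes are red in arrays 2 and 3 and blue or pale in array 1 (Dnajb9 and Ero1a are exceptions), whereas Chac1, Atf3 and Xbp1 are blue in all 3 arrays.

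Xbp1 and Ero1a were the genes that passed at both doses and both times. Xbp1 encodes the transcription factor that IRE1 activates by splicing, and the array does not separate spliced from unspliced mRNA. Its level at 24 h was 10.93, 11.03 and 10.91 in the vehicle arrays, 10.29, 10.01 and 10.21 at 30 µM and 10.24, 10.13 and 10.07 at 100 µM. At 72 h it was 10.88, 10.90 and 11.06 with DMSO, 10.13, 10.01 and 10.12 with 30 µM and 9.87, 9.83 and 9.83 with 100 µM. Every array with EMD lay below every vehicle array at both times. At 24 h the fall was 0.78 ± 0.09 for the lower dose and 0.81 ± 0.09 for the higher (adjusted p = 1.16e-05 and 7.92e-06), and it was 0.86 ± 0.09 and 1.11 ± 0.09 at 72 h (adjusted p = 1.86e-06 and 1.43e-07), so that the last level was 2.15-fold lower than with DMSO.

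Ero1a encodes the oxidase that passes oxidising equivalents to protein disulfide isomerases, and hypoxia is also known to raise it. It read 9.32, 9.24 and 9.48 in the vehicle arrays, 10.40, 10.12 and 9.86 at 30 µM and 10.04, 9.98 and 10.00 at 100 µM at 24 h. At 72 h it read 8.52, 8.31 and 8.82 with DMSO, 9.58, 9.55 and 9.51 with 30 µM and 9.61, 9.22 and 9.39 with 100 µM. All treated arrays lay above all vehicle arrays of the same time, and the arrays of the 2 doses overlapped at both times. At 24 h the rise was 0.78 ± 0.14 for the lower dose and 0.66 ± 0.14 for the higher (adjusted p = 0.00183 and 0.00629), and it was 0.995 ± 0.14 and 0.86 ± 0.14 at 72 h (adjusted p = 6.47e-05 and 0.000309). A second probe set of Ero1a changed by 1.21 and 1.07 at 72 h. Without array 1 of 100 µM at 72 h, which takes its spread out of the shared estimate, 1 gene rose and 3 fell with 30 µM at 24 h, against 3.71% and 2.38% of all probe sets, since Hsp90b1 (-0.56 ± 0.11, adjusted p = 0.00389) and Sdf2l1 (-0.67 ± 0.15, adjusted p = 0.0134) then passed. With 100 µM at 24 h 1 rose and 2 fell in that fit, against 3.44% and 3.49%, and the gene gained was again Hsp90b1 (-0.52 ± 0.11, adjusted p = 0.00584).

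**Figure D2:**
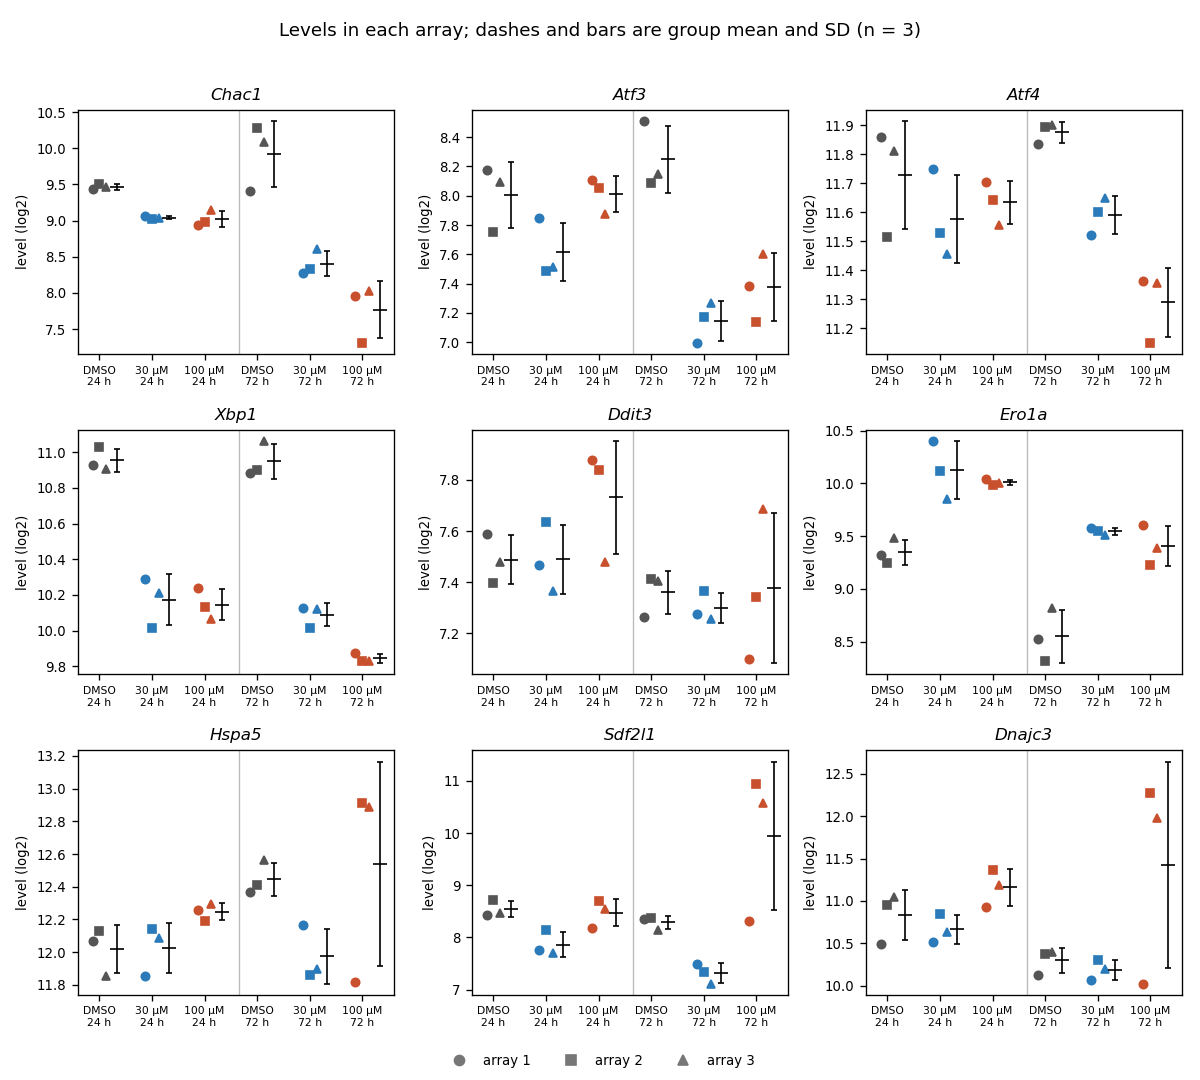
Log2 level of 9 genes in each array, by group, with the symbol giving the array number and the dash and bar the group mean and SD of 3 arrays. Xbp1 lies below and Ero1a above the vehicle of the same time in all treated arrays. Chac1 is lowest with 100 µM at 72 h, and Hspa5, Sdf2l1 and Dnajc3 show array 1 of that group far below arrays 2 and 3.

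The ATF4 branch, made of Atf4, Ddit3, Atf3 and the 5 targets of ATF4 or CHOP, was lower than with DMSO after 72 h at both doses. Of its 8 genes 4 fell with 30 µM and 5 with 100 µM, against 9.22% and 9.68% of all probe sets, and 0 rose, with medians of -0.373 and -0.551 against 0.008 and 0.022 over all probe sets. The result did not rest on array 1: 5 of 8 fell with 100 µM whichever 1 of the 3 arrays of that group was left out, against 10.5%, 7.48% and 6.75% of all probe sets without arrays 1, 2 and 3. In arrays 1, 2 and 3 of 100 µM the median difference of the 8 genes from the vehicle mean was -0.618, -0.501 and -0.497. Ddit3 and Ppp1r15a lay above that mean in array 3, by 0.33 and 0.09.

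Chac1, which encodes a glutathione-degrading enzyme and is a known target of ATF4, had the largest change of the 32 genes for EMD against DMSO with all arrays, whereas without array 1 of 100 µM that of Sdf2l1 (2.48) was larger than that of Chac1 (-2.25). Its level at 72 h was 9.40, 10.28 and 10.09 in the vehicle arrays, 8.27, 8.34 and 8.61 at 30 µM and 7.96, 7.31 and 8.03 at 100 µM. All 6 treated arrays lay below the lowest vehicle array, and the 100 µM arrays lay below the 30 µM arrays. It fell by 1.52 ± 0.19 with 30 µM and by 2.15 ± 0.19 with 100 µM (adjusted p = 2.58e-05 and 7.59e-07), which is 2.86-fold and 4.45-fold lower. At 24 h it read 9.43, 9.51 and 9.46 with DMSO, 9.06, 9.02 and 9.04 with 30 µM and 8.94, 8.99 and 9.14 with 100 µM, again without overlap with DMSO, but the changes of -0.43 ± 0.19 and -0.45 ± 0.19 did not pass (adjusted p = 0.273 and 0.235). The response to 100 µM was more negative at 72 h than at 24 h by 1.71 ± 0.27 (adjusted p = 0.00824 for the interaction), and Chac1 was the only 1 of the 32 genes to pass that test, where 0.245% of all probe sets rose and 0.448% fell.

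Atf4 itself encodes the factor that links eIF2α phosphorylation to transcription. It read 11.83, 11.89 and 11.90 in the vehicle arrays, 11.52, 11.60 and 11.65 at 30 µM and 11.36, 11.15 and 11.36 at 100 µM at 72 h, a stepwise order in which no array of a group overlapped another group. The fall with 100 µM was 0.59 ± 0.10 (adjusted p = 0.000563), and the change with 30 µM was -0.29 ± 0.10 (adjusted p = 0.0642, and 0.049 with the replicate number as a block, which calls it). Much of the control of ATF4 is at translation, which an array does not measure. At 24 h the arrays read 11.86, 11.51 and 11.81 with DMSO, 11.75, 11.53 and 11.46 with 30 µM and 11.70, 11.64 and 11.56 with 100 µM, the groups overlapped, and neither dose passed.

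Ddit3 encodes CHOP, a factor of prolonged ER stress that is widely read as its marker. Its level was 7.59, 7.40 and 7.48 in the vehicle arrays, 7.47, 7.63 and 7.37 at 30 µM and 7.88, 7.84 and 7.48 at 100 µM at 24 h. At 72 h it was 7.26, 7.41 and 7.40 with DMSO, 7.28, 7.36 and 7.26 with 30 µM and 7.10, 7.34 and 7.69 with 100 µM. The groups overlapped in every comparison, and the change with 100 µM at 72 h was 0.02 ± 0.13, with a 95% interval from -0.26 to 0.30.

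Atf3, a stress-inducible repressor and activator downstream of ATF4, stood at 8.17, 7.75 and 8.09 in the vehicle arrays, 7.84, 7.49 and 7.52 at 30 µM and 8.11, 8.05 and 7.87 at 100 µM at 24 h. After 72 h it stood at 8.51, 8.09 and 8.15 with DMSO, 6.997, 7.17 and 7.27 with 30 µM and 7.38, 7.14 and 7.60 with 100 µM. Treated and vehicle arrays overlapped at 24 h and not at 72 h, where Atf3 fell by 1.11 ± 0.15 and by 0.87 ± 0.15 (adjusted p = 4.83e-05 and 0.000498).

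Among the remaining targets, Asns, the enzyme that makes asparagine, fell with 100 µM and not with 30 µM. It read 10.51, 10.70 and 10.85 in the vehicle arrays, 10.43, 10.24 and 10.59 at 30 µM and 9.98, 10.13 and 10.14 at 100 µM at 72 h. The fall was 0.60 ± 0.12 (adjusted p = 0.00185), and with 30 µM the change was -0.27 ± 0.12. Its 24 h values were 10.44, 10.01 and 10.33 with DMSO, 10.34, 10.30 and 10.40 with 30 µM and 10.46, 10.22 and 10.34 with 100 µM, which overlapped.

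Sesn2, whose product restrains mTORC1 when leucine is short, fell at both doses at 72 h. It read 8.84, 9.10 and 8.88 in the vehicle arrays, 8.37, 8.51 and 8.56 at 30 µM and 8.32, 8.49 and 8.47 at 100 µM. All treated arrays lay below the vehicle arrays, with falls of 0.46 ± 0.10 and 0.51 ± 0.10 (adjusted p = 0.00503 and 0.00224). At 24 h they read 8.83, 8.77 and 8.97 with DMSO, 8.91, 8.65 and 8.73 with 30 µM and 9.12, 8.87 and 8.81 with 100 µM, with overlap. A second probe set of Sesn2, with a mean level of 4.39, changed by 0.07 and -0.09 at 72 h, and the mean of both did not pass, so both falls rest on the first.

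Ppp1r15a encodes GADD34, which brings a phosphatase to eIF2α and so ends the block of translation. At 72 h it read 8.31, 8.23 and 8.25 in the vehicle arrays, 7.77, 7.67 and 7.62 at 30 µM and 7.85, 8.23 and 8.35 at 100 µM. It fell by 0.57 ± 0.16 with 30 µM (adjusted p = 0.0164, lost without array 2 or array 3 of that dose or DMSO array 1), whereas array 3 of 100 µM lay above the vehicle arrays and the change was -0.12 ± 0.16. At 24 h it read 8.43, 8.13 and 8.52 with DMSO, 8.49, 8.03 and 7.85 with 30 µM and 8.52, 8.47 and 8.20 with 100 µM, with overlap. Trib3, a pseudokinase induced by ATF4 and CHOP that restrains both AKT and ATF4, changed by -0.07 ± 0.14 and -0.40 ± 0.14, and the latter passed with the replicate block (adjusted p = 0.0368, and 0.0564 without it). Its 2 other probe sets changed by -0.42 and -0.39 with 100 µM.

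Of the ER sensors, Eif2ak3 (PERK) fell at both doses at 72 h. It read 8.09, 7.76 and 7.65 in the vehicle arrays, 7.45, 7.26 and 7.12 at 30 µM and 7.56, 6.96 and 6.78 at 100 µM. The vehicle arrays lay above all treated arrays, and the falls were 0.56 ± 0.17 and 0.73 ± 0.17 (adjusted p = 0.036 and 0.00679). The former was lost without array 2 or array 3 of 30 µM or DMSO array 1 or 2 and with cyclic loess, and the latter with only the arrays compared in the fit (adjusted p = 0.0698). At 24 h the values were 6.89, 7.16 and 6.70 with DMSO, 7.15, 7.08 and 7.37 with 30 µM and 6.89, 6.74 and 6.92 with 100 µM, and the vehicle level rose from 24 to 72 h by 0.92 ± 0.17 (adjusted p = 0.00152), so that the treated cultures at 72 h lay nearer to the level of 24 h. Atf6, the sensor that is cut in the Golgi, changed by -0.18 ± 0.12 and -0.01 ± 0.12 at 72 h and passed at neither dose.

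**Figure D3:**
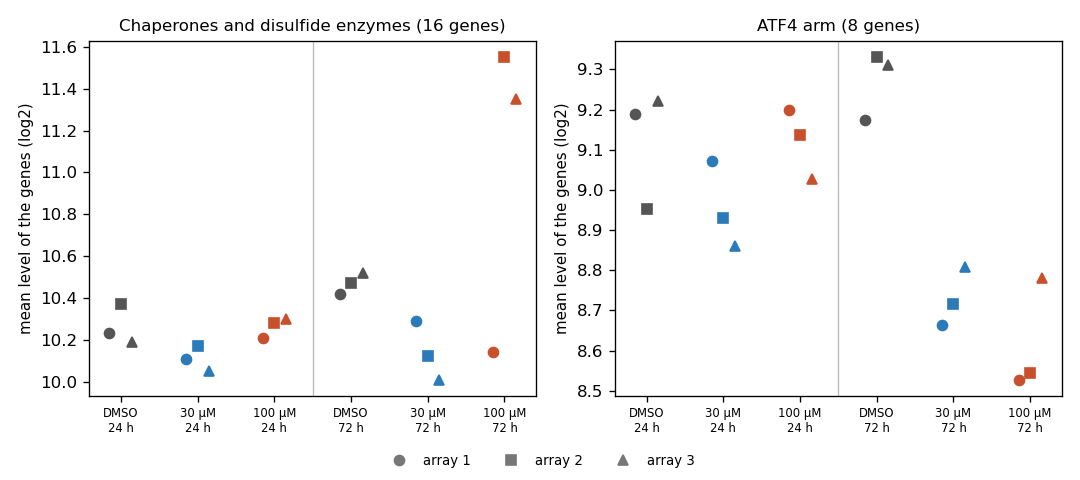
Mean log2 level of the 16 chaperone and disulfide genes (left) and the 8 genes of the ATF4 branch (right) in each array, by group, with the symbol giving the array number. For the chaperones array 1 of 100 µM at 72 h reads 10.14 against 11.55 and 11.35 in arrays 2 and 3, whereas all treated arrays at 72 h lie below the vehicle arrays for the ATF4 branch.

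The 11 chaperones with their cofactors and the 5 disulfide enzymes were split by array with 100 µM. In the mean of these 16 genes the vehicle arrays at 72 h read 10.42, 10.47 and 10.52, the 30 µM arrays 10.29, 10.12 and 10.01, and the 100 µM arrays 10.14, 11.55 and 11.35. All 30 µM arrays and array 1 of 100 µM thus lay below the vehicle, and arrays 2 and 3 of 100 µM lay above it. The median difference of the 16 genes from the vehicle mean was -0.398 in array 1 of 100 µM, 1.03 in array 2 and 0.894 in array 3. The median SD of these genes in that group was 0.806, against 0.101 to 0.148 in the other groups, while over all probe sets it was 0.133 there and 0.110 to 0.134 elsewhere.

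With all arrays 4 of the 16 rose and 1 fell with 100 µM at 72 h, where 7.42% of all probe sets rose and 9.68% fell. The median of the 16 was 0.561, against 0.022 over all probe sets. Without array 1 13 rose and 1 fell, at a median of 0.94, where 9.11% of all probe sets rose and 10.5% fell. Without array 2 or array 3 instead, 1 rose and 1 fell, against 5.44% and 7.48% of all probe sets without array 2 and 5.06% and 6.75% without array 3. Over all 32 genes the fit without array 1 gave 15 that rose and 8 that fell. With 30 µM at 72 h 1 of the 16 rose (Ero1a) and 3 fell, where 7.88% of all probe sets rose and 9.22% fell. The median of the 16 was -0.353, against 0.008 over all probe sets. Without array 1 of the other dose 8 of the 16 fell and 1 rose, where 8.38% of all probe sets rose and 10.1% fell. The genes gained there were Hspa5, Pdia3, Pdia6, Sdf2l1 and Canx.

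Hspa5 encodes BiP, the ER Hsp70 that binds the sensors in the unstressed cell. It read 12.37, 12.41 and 12.56 in the vehicle arrays, 12.17, 11.86 and 11.90 at 30 µM and 11.82, 12.91 and 12.89 at 100 µM at 72 h. Array 1 of 100 µM was the lowest of these 9 arrays and arrays 2 and 3 the highest, and the change of 0.09 ± 0.21 did not pass (adjusted p = 0.823). Without array 1 it rose by 0.46 ± 0.12 (adjusted p = 0.0109), and without array 2 or array 3 the change did not pass. The change with 30 µM was -0.47 ± 0.21 (adjusted p = 0.14, and 0.00409 without that array of 100 µM), with no overlap with DMSO. The 24 h levels were 12.07, 12.13 and 11.85 with DMSO, 11.85, 12.14 and 12.09 with 30 µM and 12.26, 12.19 and 12.29 with 100 µM.

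Hsp90b1 encodes GRP94, the ER form of Hsp90. At 72 h it read 12.66, 12.84 and 12.999 in the vehicle arrays, 12.09, 11.87 and 11.76 at 30 µM and 11.81, 13.30 and 13.17 at 100 µM. With 30 µM it fell by 0.92 ± 0.26 (adjusted p = 0.0183), a call lost without array 2 or array 3 of 30 µM or of DMSO. With 100 µM the change was -0.07 ± 0.26, and without array 1 it rose by 0.40 ± 0.12 (adjusted p = 0.0265), so the sign depended on that array. Without array 2 and without array 3 the changes of -0.34 and -0.28 did not pass. At 24 h it read 12.37, 12.47 and 12.23 with DMSO, 11.77, 11.80 and 11.84 with 30 µM and 11.76, 11.77 and 11.98 with 100 µM, with all treated arrays below the vehicle arrays, and both doses passed in the fit without array 1 of 100 µM at 72 h, as given above.

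Sdf2l1 encodes a partner of the BiP cofactor ERdj3 and had the largest rise of the 32 genes with 100 µM at 72 h. It stood at 8.34, 8.38 and 8.14 in the vehicle arrays, 7.49, 7.34 and 7.12 at 30 µM and 8.32, 10.95 and 10.58 at 100 µM at 72 h. With 30 µM all arrays lay below the vehicle, array 1 of 100 µM lay within its range, and arrays 2 and 3 lay far above it. The rise with 100 µM was 1.66 ± 0.43 (adjusted p = 0.0119), or 3.16-fold, a call lost without array 2 or array 3 or with only the arrays compared, and without array 1 it was 2.48 ± 0.17. With 30 µM the change was -0.97 ± 0.43 (adjusted p = 0.145, and 0.00027 without array 1 of 100 µM). At 24 h the arrays read 8.43, 8.71 and 8.47 with DMSO, 7.75, 8.14 and 7.69 with 30 µM and 8.19, 8.69 and 8.54 with 100 µM.

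Hyou1 encodes GRP170, which serves BiP as a nucleotide exchange factor. It read 7.40, 7.23 and 7.22 in the vehicle arrays, 7.58, 6.86 and 6.69 at 30 µM and 7.34, 9.07 and 8.73 at 100 µM at 72 h. Array 1 of 30 µM lay above the vehicle arrays and array 1 of 100 µM within their range, while the other arrays lay below them with 30 µM and above them with 100 µM. It rose by 1.10 ± 0.31 with 100 µM (adjusted p = 0.0194), a call lost without array 2 or array 3 of that dose or of DMSO. Without array 1 the rise was 1.62 ± 0.19 (adjusted p = 2.16e-05). Its 24 h levels were 7.29, 7.25 and 6.94 with DMSO, 6.89, 6.79 and 6.87 with 30 µM and 7.17, 7.07 and 7.25 with 100 µM, and a second probe set changed by 0.72 at 72 h (adjusted p = 0.0582).

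Dnajc3 encodes p58IPK, an ER cochaperone that was first known as an inhibitor of eIF2α kinases. It read 10.13, 10.38 and 10.40 in the vehicle arrays, 10.06, 10.30 and 10.19 at 30 µM and 10.03, 12.27 and 11.98 at 100 µM at 72 h. The rise of 1.12 ± 0.37 just passed (adjusted p = 0.0487) and was lost in 9 of 14 alternatives, among them without array 2 or array 3 or any 1 DMSO array, while without array 1 it was 1.82 ± 0.17. At 24 h it read 10.50, 10.96 and 11.05 with DMSO, 10.51, 10.85 and 10.64 with 30 µM and 10.93, 11.36 and 11.19 with 100 µM, with overlap at both doses.

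Dnajb9 encodes ERdj4, which helps to keep IRE1 silent, and was the 1 gene of the 16 that fell with 100 µM at 72 h with all arrays. At 72 h it read 9.74, 9.74 and 10.05 in the vehicle arrays, 9.503, 9.60 and 9.54 at 30 µM and 9.10, 9.41 and 9.26 at 100 µM. All arrays with 100 µM, array 1 included, lay below the vehicle arrays, and the fall was 0.59 ± 0.12 (adjusted p = 0.00306). The change with 30 µM was -0.30 ± 0.12 and did not pass, and at 24 h the arrays read 9.38, 9.63 and 9.65 with DMSO, 9.25, 9.63 and 9.19 with 30 µM and 9.64, 9.59 and 9.42 with 100 µM.

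Manf, a secreted ER protein that supports BiP, read 11.22, 11.45 and 11.60 in the vehicle arrays, 10.90, 10.86 and 10.77 at 30 µM and 10.61, 11.65 and 11.51 at 100 µM at 72 h. It fell by 0.58 ± 0.18 with 30 µM (adjusted p = 0.039, lost without any 1 array of that dose or DMSO array 2 or 3) and changed by -0.17 ± 0.18 with 100 µM. At 24 h it read 10.74, 10.94 and 10.94 with DMSO, 10.56, 10.66 and 10.62 with 30 µM and 10.72, 10.82 and 10.73 with 100 µM, and the vehicle level rose by 0.55 ± 0.18 from 24 to 72 h (adjusted p = 0.0429).

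Of the other chaperones, Creld2, an ER-resident disulfide isomerase-like protein, showed the widest split, with differences from the vehicle mean of -0.45, 2.45 and 2.15 in arrays 1, 2 and 3 of 100 µM. Its change of 1.38 ± 0.47 missed the threshold (adjusted p = 0.0555) and passed with the replicate block (adjusted p = 0.0224). For Dnajb11, the ERdj3 cofactor of BiP, the differences were -0.42, 1.62 and 1.30, the change was 0.83 ± 0.33 (adjusted p = 0.0952) and the block called it (adjusted p = 0.0471). Calr and Canx, the lectin chaperones calreticulin and calnexin that hold glycoproteins until they are folded, had changes of 0.55 and 0.17 that did not pass. The probe sets of Canx disagreed, as one of the other 2 fell by 0.52 (adjusted p = 0.0101) and one changed by 0.19. Without array 1 all 4 rose, by 2.30, 1.46, 1.07 and 0.38 in the order given here.

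**Figure D4:**
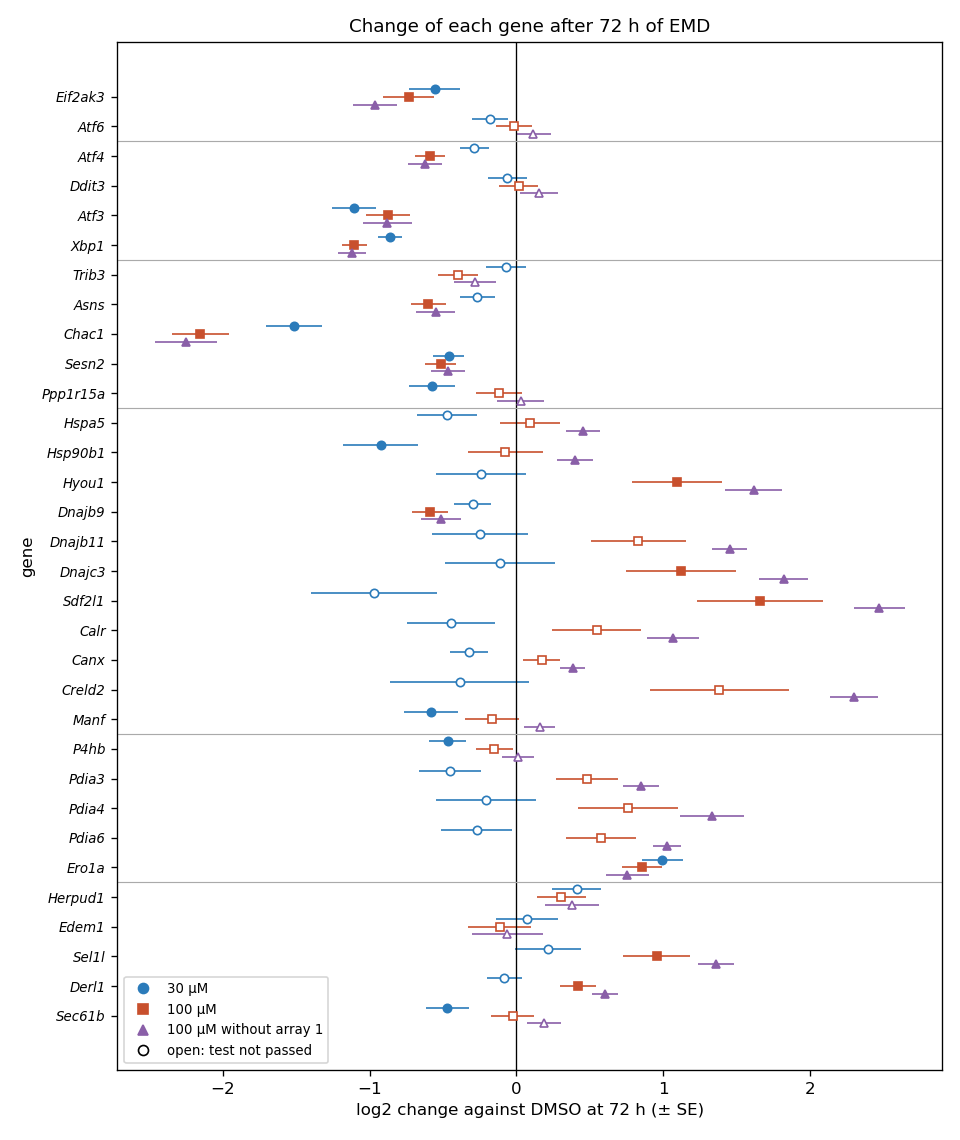
Log2 change against DMSO at 72 h with its SE for each of the 32 genes with 30 µM (circles), 100 µM (squares) and 100 µM without array 1 (triangles), where open symbols did not pass the test. The triangles of most chaperones lie to the right of the squares. Those of the chaperones that rose run from 0.38 for Canx to 2.48 for Sdf2l1, and those of Manf (0.16) and Dnajb9 (-0.51) lie lower. The triangles of Chac1, Xbp1, Atf3 and Atf4 stay close to the squares.

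The protein disulfide isomerases, which make and shuffle disulfide bonds in the ER, mostly showed the same split. With 100 µM at 72 h arrays 1, 2 and 3 differed from the vehicle mean by -0.38, 1.57 and 1.10 for Pdia4, by -0.33, 1.11 and 0.95 for Pdia6 and by -0.25, 0.96 and 0.75 for Pdia3, and no change of these 3 genes passed with all arrays. Without array 1 they rose by 1.33, 1.03 and 0.85, and without array 2 or array 3 they did not pass. P4hb, also a subunit of the prolyl hydroxylase of collagen, fell by 0.47 ± 0.13 with 30 µM (adjusted p = 0.0158, lost without array 2 or array 3 of that dose or DMSO array 3) and changed by -0.15 ± 0.13 with 100 µM, and by 0.01 without array 1. Ero1a, which acts on these enzymes, was higher in all 3 arrays of 100 µM, by 1.06, 0.67 and 0.84, and thus did not show their split.

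Genes of ER-associated degradation (ERAD) and translocation were mixed. Sel1l, the partner of the ubiquitin ligase HRD1, read 7.85, 7.98 and 8.07 in the vehicle arrays, 8.25, 8.12 and 8.17 at 30 µM and 8.11, 9.47 and 9.18 at 100 µM at 72 h. Its 24 h values were 8.35, 8.63 and 8.40 with DMSO, 8.16, 8.40 and 8.31 with 30 µM and 8.31, 8.54 and 8.63 with 100 µM, which overlapped. It rose by 0.96 ± 0.23 with 100 µM (adjusted p = 0.00676, and 0.104 with only the arrays compared), and all 3 arrays of that dose lay above the vehicle, array 1 the least. Derl1, a channel component of that route, rose by 0.42 ± 0.12 (adjusted p = 0.0222), a call lost in 6 of 14 alternatives, among them without array 2 or array 3 or DMSO array 1 or 2, and 2 further probe sets of it changed by 0.16 and -0.01. Sec61b, a subunit of the translocon, fell by 0.47 ± 0.15 with 30 µM (adjusted p = 0.0357, lost without any 1 array of that dose or DMSO array 2 or 3) and changed by -0.02 ± 0.15 with 100 µM. Herpud1, which gathers the degradation machinery, changed by 0.41 ± 0.16 and 0.31 ± 0.16, and the former passed with the replicate block (adjusted p = 0.0391). Edem1, a lectin that extracts misfolded glycoproteins, passed at neither dose, with changes of 0.07 ± 0.21 and -0.11 ± 0.21. At 24 h its changes of -0.40 ± 0.21 and -0.43 ± 0.21 did not pass (adjusted p = 0.381 and 0.321) but did in the fit with the replicate block (0.046 and 0.0275).

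Elements to which factors of the response bind were searched in RefSeq promoter windows of the GRCr8 build, from 250 bases before to 50 after the start of a gene. Of the 33 genes 25 had a window. The ER stress element (ERSE), bound by ATF6 with NF-Y, is CCAAT and CCACG with 9 bases between, ERSE-II is ATTGG and CCACG with 1 base between, the UPRE of XBP1 was searched as TGACGTGG, and the C/EBP-ATF response element (CARE) of ATF4 as TGATGCAA, each on both strands. An exact ERSE stood in 7 of the 25 genes, where 0.0765% of 27457 genes with a window hold one, and ERSE-II in 3, where 0.0619% do. The genes were listed for their part in this response, so these counts are no test of it. The UPRE was found in 1 gene, Hyou1, where 0.681% of all genes with a window hold it, and it shares bases with the farther of 2 ERSE-II of Hyou1. The CARE was found in 2, Chac1 and Herpud1, where 0.827% of all genes with a window hold it. A match is a description and not a binding site, and a window without one says only that these letters are not in it.
The stretches are shown because they hold the elements found in these genes, and the genes that carry them did not all move alike. With 100 µM at 72 h and all arrays Dnajc3 and Hyou1 rose, Xbp1 and Chac1 fell and the others did not pass. Without array 1 Hspa5, Hsp90b1, Creld2, Calr and Dnajb11 rose as well, Xbp1 and Chac1 fell and Herpud1 did not pass. Without array 2 or array 3 Xbp1 and Chac1 fell and the others, Dnajc3 and Hyou1 included, did not pass. Hsp90b1 held 2 ERSE, of which the nearer to the start is shown, as it is for Hyou1. Each is given on the strand of its gene, 5' to 3', with the element in capitals, which is read on the opposite strand for Calr, Creld2, Hsp90b1, Hyou1 and both stretches with a CARE.
Hspa5 ERSE: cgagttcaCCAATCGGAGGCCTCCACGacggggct
Hsp90b1 ERSE: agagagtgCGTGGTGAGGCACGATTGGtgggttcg
Dnajc3 ERSE: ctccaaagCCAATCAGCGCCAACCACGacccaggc
Creld2 ERSE: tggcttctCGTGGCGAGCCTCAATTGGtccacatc
Calr ERSE: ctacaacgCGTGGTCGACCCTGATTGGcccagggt
Xbp1 ERSE: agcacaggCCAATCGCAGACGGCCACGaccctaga
Dnajb11 ERSE-II: aggcggcgATTGGCCCACG
Hyou1 ERSE-II: gtcttctaCGTGGCCCAATggggacgt
Herpud1 ERSE-II: gggcgctgATTGGGCCACGttgggcac
Herpud1 CARE: acggcgggTTGCATCAgcccgcac
Chac1 CARE: ctccgccgTTGCATCActcctgct
In the build these lie at chr3:38452965-38452999 (Hspa5, plus), chr7:23012339-23012373 (Hsp90b1, minus), chr15:102432526-102432560 (Dnajc3, plus), chr7:121789231-121789265 (Creld2, plus), chr19:40213127-40213161 (Calr, plus) and chr14:84604550-84604584 (Xbp1, plus) for ERSE. Those with ERSE-II lie at chr11:91672800-91672818 (Dnajb11, minus), chr8:53602786-53602812 (Hyou1, plus) and chr19:10614813-10614839 (Herpud1, minus). Those with a CARE lie at chr19:10614876-10614899 (Herpud1, minus) and chr3:126795956-126795979 (Chac1, plus). All are upstream of the transcription start, and the ERSE-II of Dnajb11 ends at the start itself. The 10 genes with ERSE or ERSE-II, of which 8 are chaperones or disulfide enzymes, had a median change of 0.428 with 100 µM at 72 h, and the 15 genes with a window and neither element, of which 4 are of those classes, had -0.152. These medians were 0.762 and -0.062 without array 1, 0.262 and -0.254 without array 2, and 0.297 and -0.223 without array 3. Between the doses at 72 h they were 0.922 and -0.055 with all arrays, 1.42 and -0.003 without array 1 of 100 µM, 0.627 and -0.086 without array 2, and 0.719 and -0.075 without array 3. The elements and the classes overlap, so these medians are not separate from the results above.

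Between the doses, 0 of the 32 genes passed at 24 h, where 0% of all probe sets rose and 0% fell. At an unadjusted p below 0.05, 1 gene was higher with 100 µM and 0 were lower, and 4.58% of all probe sets passed in either direction. The fit with the replicate block called 0 of the genes and 3 of all probe sets. At 72 h 5 genes were higher with 100 µM and 0 lower, against 1.25% and 1.85% of all probe sets. These were Sdf2l1 (2.63 ± 0.43, adjusted p = 0.0049), Hyou1 (1.34 ± 0.31, 0.0263), Pdia3 (0.93 ± 0.21, 0.0253), Derl1 (0.50 ± 0.12, 0.0315) and Canx (0.49 ± 0.13, 0.0474). Their calls were lost in 1, 5, 5, 7 and 9 of 14 alternatives in this order. Other probe sets changed by 0.86 for Hyou1, 0.52 for Pdia3, 0.18 and -0.02 for Derl1 and -0.24 and 0.44 for Canx, and did not pass. With the replicate number as a block 10 were higher, by Pdia6, Dnajb11, Dnajc3, Creld2 and Sel1l in addition (adjusted p from 0.02 to 0.0374), where 5.23% of all probe sets passed in either direction, and with only the arrays compared 0 were, where 0.454% did. Without array 1 18 were higher and 1 lower (Chac1, -0.74 ± 0.21), among them 14 of the 16 chaperones and disulfide enzymes, where 4.2% of all probe sets rose and 3.98% fell, and without array 2 or array 3 of either dose 1 was higher (for 100 µM, against 0.132% of all probe sets higher and 0.322% lower without array 2, and 0.18% and 0.39% without array 3). Without array 1 of 30 µM 3 were higher. For the ATF4 branch the doses were not told apart with all arrays: 0 of 8 genes passed, and the 95% interval for Chac1 (-0.64 ± 0.19, adjusted p = 0.0892) ran from -1.04 to -0.23. Without array 1 of 100 µM 1 of the 8 was higher (Ppp1r15a, 0.60 ± 0.16, adjusted p = 0.0266) and 1 lower (Chac1). Without array 2 or array 3 of that dose 0 passed.

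In the vehicle itself 6 genes rose and 2 fell from 24 to 72 h, against 11% and 10.7% of all probe sets. The RNA controls differed between these times as well. The mean 3' to 5' difference was 1.31 at 24 h and 0.698 at 72 h for beta-actin. It was 0.289 and 0.168 for GAPDH and 1.40 and 1.57 for hexokinase. The part of RNA quality in the changes with time was not tested. Pdia4 rose by 1.63 ± 0.34 (adjusted p = 0.00296), Eif2ak3 by 0.92 ± 0.17 and Pdia3 by 0.91 ± 0.21, and the others that rose were Manf, Sec61b and Asns. A second probe set of Pdia3 changed by 0.42 ± 0.20 and did not pass. Ero1a fell by 0.80 ± 0.14 (adjusted p = 0.000732) and Atf6 by 0.38 ± 0.12, although a second probe set of Atf6 changed by 0.35 ± 0.16. Without array 1 of 100 µM at 72 h 10 rose and 4 fell, against 11.8% and 11.5% of all probe sets, and 4 or 5 passed without DMSO array 2 or 3 of either time. Ero1a thus went opposite ways with culture time and with EMD. The difference of the responses between the times was tested by an interaction. For 30 µM 0 genes passed, against 0.412% and 0.528% of all probe sets, and at an unadjusted p below 0.05 0 were more positive and 4 more negative at 72 h, while the block called 3 (Atf3, Eif2ak3 and Chac1) and 2.98% of all probe sets. Without array 1 of 100 µM at 72 h Eif2ak3 passed, against 0.551% and 0.734% of all probe sets, and without DMSO array 1 at 72 h 1 gene passed. For 100 µM Chac1 passed, as given above, joined by Atf3 and Asns with the block, which called 1.72% of all probe sets. Without array 1 12 genes were more positive, 10 of them chaperones or disulfide enzymes, and 2 more negative, where 1.14% and 1.43% of all probe sets passed, and without DMSO array 1 at 72 h 2 passed.

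Other genes of the same pathways were counted at 72 h from lists named by function, against 7.88% of all probe sets that rose and 9.22% that fell with 30 µM and 7.42% and 9.68% with 100 µM (9.11% and 10.5% without array 1 of that dose). Of 28 further genes of the ATF4 programme 4 rose and 12 fell with 30 µM (14.3% and 42.9%), and 5 rose and 13 fell with 100 µM (17.9% and 46.4%), with medians of -0.229 and -0.312. At that dose 5 rose and 11 fell without array 1, at a median of -0.268. Among those that fell were Slc7a1, a transporter of cationic amino acids (-1.15 ± 0.12 with 30 µM), Nupr1, a stress-inducible chromatin protein (-1.01 ± 0.11 with 30 µM), Gpt2, an alanine transaminase (-1.37 ± 0.20 with 100 µM), and Fgf21, a hepatic hormone (-1.36 ± 0.30 with 100 µM). Those that rose included Vldlr, the VLDL receptor (1.45 ± 0.16 and 1.54 ± 0.16), Cebpb, a liver transcription factor (0.97 ± 0.13 with 30 µM), and Stc2, a secreted glycoprotein (1.44 ± 0.37 with 100 µM, a call lost without array 3 of that dose). Some of these genes, such as Fgf21 and Vldlr, are also known PPAR targets.

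Of 19 cytosolic tRNA synthetases, many of which ATF4 raises, 8 fell and 0 rose with 30 µM (42.1% and 0%) and 7 fell and 1 rose with 100 µM (36.8% and 5.26%), with medians of -0.204 and -0.155. Their mean level was 9.86, 9.85 and 9.93 in the vehicle arrays and 9.53, 9.82 and 9.80 with 100 µM, so that array 1 lay farthest below the vehicle. Without it 6 fell and 2 rose, at a median of -0.052. Cars1 stood at -0.70 ± 0.09, Tars1 at -0.62 ± 0.09 and Lars1 at -0.56 ± 0.10 with 100 µM, and these 3 fell without any 1 array of that group.

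Among 22 further folding factors of the ER 1 rose and 5 fell with 30 µM (4.55% and 22.7%) and 2 rose and 2 fell with 100 µM (9.09% each), with medians of -0.150 and -0.008. Here too array 1 of 100 µM stood apart, with a mean level of 8.51 against 8.87 and 8.77 in arrays 2 and 3 and 8.74 to 8.82 in the vehicle arrays. Without array 1 4 rose and 2 fell with 100 µM, at a median of 0.100, and without array 2 0 rose and 3 fell, at -0.148. Pdia5, a disulfide isomerase, fell by 0.91 ± 0.13 and by 0.67 ± 0.13, and Ero1b, the paralogue of Ero1a, fell by 0.74 ± 0.17 and by 0.68 ± 0.17, opposite to Ero1a, and all 4 calls held without array 1.

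Of 24 further translocation factors 0 rose and 8 fell with 30 µM (33.3%), among them the signal peptidase subunits Spcs1 (-0.60 ± 0.09) and Sec11a (-0.48 ± 0.08). With 100 µM 2 rose and 2 fell (8.33% each), and 5 rose and 1 fell without array 1, whose mean level of 10.27 lay below the 10.64 and 10.57 of arrays 2 and 3. Of 17 further ERAD factors 1 rose and 2 fell with 30 µM and 2 rose and 1 fell with 100 µM, and without array 1 of 100 µM these counts were 1 and 4 and 3 and 1. Of 11 other genes of eIF2α kinases, phosphatase and exchange factor 2 rose at each dose (Eif2b2 and Eif2b5) and 0 fell, and with 100 µM Eif2b5 alone rose without array 1, Eif2b2 alone without array 2 and 0 genes without array 3. Of 16 further signalling genes 2 rose and 4 fell with 30 µM and 1 rose and 3 fell with 100 µM, or 2 and 3 without array 1. Creb3l3, a liver factor cut in the Golgi like ATF6 and known as a PPARα target, rose by 1.38 ± 0.13 and 1.03 ± 0.13, and Casp12, an ER-associated caspase of rodents, fell by 0.99 ± 0.27 and by 1.04 ± 0.27.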

How the data were processed

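The deposited table held log2 expression values of 31099 probe sets on 18 Affymetrix Rat Genome 230 2.0 arrays, which the authors made by RMA (background correction, quantile normalisation and a summary over probes), so that changes are relative to the other probes of an array and weak signals are compressed. Every value column belonged to a sample (0 did not). After removal of 57 control probe sets, 31042 were fitted with limma (version 3.58.1, R 4.3.3) as 6 groups without a block, with two-sided moderated tests and Benjamini-Hochberg adjustment over all probe sets. Gene names came from the platform annotation, in which 20826 probe sets had 1 symbol, 436 several and 9780 none, and the probe set with the highest mean stood for a gene. The members and lists were chosen with earlier results of these data known. Values in every array were given for Ddit3, Atf4, Hspa5 and Xbp1 and for the 16 genes with the largest changes among those called for EMD against DMSO. Of other lists, up to 4 called genes with the largest changes were named.

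The replicate numbers were checked as pairs, since according to the methods cells of each animal received each treatment. Over all probe sets, deviations of same-numbered arrays correlated above 0.1 in all 3 pairs in 5 of 7 comparisons (lowest 0.12, highest 0.63) and in 2 of 3 pairs for each dose against DMSO at 24 h. A fit with the number as a block was run beside the main one. Further alternatives were another normalisation, equal array medians, only the arrays compared, a trend with robust moderation, array weights, averaging a gene's probe sets, a filter on dim probe sets, and leaving out each array. The omission of array 1 of 100 µM at 72 h in comparisons that do not use it, and of each array of that group for the other lists, was chosen after seeing the data. Promoter windows were searched in Python (version 3.11.15). Not every stretch with an element is reported here.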

Additional observations from a re-analysis of the deposited data

Results flagged for a closer look

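One response differed between the times by a test of the difference itself. The response of Chac1 to 100 µM EMD was more negative at 72 h than at 24 h, with an interaction of -1.71 ± 0.27 on the log2 scale (limma, adjusted p = 0.00824, and from 0.000363 to 0.0459 over 20 alternatives). All 3 arrays with 100 µM lay below all 3 vehicle arrays at both times.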

How the results depend on the processing

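Of 43 pairs of a gene and a comparison that passed, 20 passed under every alternative run, 23 were lost under at least 1, and 0 changed sign. With 100 µM at 72 h Chac1, Xbp1, Atf3, Ero1a, Atf4, Asns and Dnajb9 passed under all 14. With 3 arrays a group, the chaperone results with 100 µM depend on array 1, and the cause of the changes below was not tested unless stated.

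With only the arrays compared in the fit, 5 genes passed with 30 µM and 4 with 100 µM at 24 h (2 each in the main fit; 4.09% and 4.64% of all probe sets), 8 with 100 µM at 72 h (14; 10.6%), as Sdf2l1, Hyou1, Dnajc3, Sel1l, Derl1 and Eif2ak3 were lost, and 0 between the doses at 72 h (5; 0.454%). Array weights gave 22 with 100 µM at 72 h, 19 between the doses, and 1 and 9 for the time interactions of 30 and 100 µM (0 and 1), while the share of all probe sets that passed was 26.4%, 10.7%, 2.06% and 3.51%, against 17.1%, 3.1%, 0.941% and 0.693% in the main fit. The mean of all probe sets gave 3 between the doses (3.16%). The replicate block gave 10 between the doses at 72 h (5.23%) and 3 for each interaction (2.98% and 1.72%), where the pairing takes out differences between the numbers. It lost no call, and the calls it added are given with the results.

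Leaving out 1 array at a time gave 2 to 4 genes with 30 µM and 2 to 3 with 100 µM at 24 h, 5 to 16 and 10 to 23 at 72 h, 0 to 0 between the doses at 24 h and 1 to 19 at 72 h, 4 to 14 for vehicle time, and 0 to 1 and 1 to 14 for the interactions. The highest value came each time without array 1 of 100 µM at 72 h, except between the doses at 24 h. The share of all probe sets moved too. Without that array 8.38% rose and 10.1% fell with 30 µM at 72 h, and 9.11% and 10.5% with 100 µM. Between the doses at 72 h 4.2% rose and 3.98% fell, against 1.25% and 1.85% in the main fit. Without array 2 of 100 µM these were 0.132% and 0.322%. For the interaction of 100 µM 1.14% and 1.43% passed without array 1, against 0.245% and 0.448% in the main fit.

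Signs turned for genes that did not pass with 100 µM at 72 h. Hspa5 (0.09) read -0.092 without array 2 and -0.081 without array 3, with a range from -0.092 to 0.456 over arrays left out. Hsp90b1 (-0.07) read 0.203 with array weights, and from -0.344 to 0.400 over arrays left out (0.0085 without DMSO array 3). Canx (0.17) read -0.052 as the mean of its probe sets.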

Other observations

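Chaperones of other compartments were counted at 72 h in the same way. Of 12 mitochondrial chaperones and proteases 8 rose and 0 fell with 30 µM and 7 rose and 0 fell with 100 µM (66.7% and 58.3%, against 7.88% and 7.42% of all probe sets that rose), with medians of 0.408 and 0.428 against 0.008 and 0.022 over all probe sets. Without array 1 of 100 µM at 72 h 8 rose and 1 fell with 30 µM and 8 rose and 0 fell with 100 µM, and without array 2 or array 3 6 rose with 100 µM. Clpx, the unfoldase of the matrix protease ClpXP, rose by 1.74 ± 0.16 and 1.57 ± 0.16. Lonp1, a matrix protease, rose by 0.72 ± 0.18 and 1.48 ± 0.18, and was higher with 100 µM than with 30 µM by 0.76 ± 0.18 (adjusted p = 0.0302, lost without array 2 or array 3 of 100 µM). Grpel1, the exchange factor of mitochondrial Hsp70, rose by 0.90 ± 0.12 and 0.86 ± 0.12. At 24 h 3 rose with 30 µM and 4 with 100 µM (25% and 33.3%, against 3.35% and 3.06% of all probe sets).

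Of 12 cytosolic heat shock genes 2 rose and 3 fell with 30 µM, and 1 rose and 3 fell with 100 µM (16.7% and 25%, and 8.33% and 25%, against 7.88% and 9.22%, and 7.42% and 9.68%, of all probe sets). Without array 1 of 100 µM 2 rose and 2 fell at that dose. Hspa1a, the inducible Hsp70, fell by 0.95 ± 0.23 and by 0.76 ± 0.23 (the latter lost without array 1 or array 2), and Bag3, its cochaperone, fell by 0.66 ± 0.13 and by 0.89 ± 0.13. Stip1, which links Hsp70 to Hsp90, rose by 0.48 ± 0.10 and 0.61 ± 0.10.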
